A study of Mus musculus with 8 samples.

Results

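The genes followed here encode parts of the cornified envelope, the protein shell that keratinocytes build under the plasma membrane as they die. There were 10 of them, followed across Ovol1 genotype and imiquimod (IMQ) treatment. They were chosen by symbol, with earlier results of these data known. The scaffold genes are Evpl, Ppl and Scel, the precursor genes Lor, Ivl, Kprp and Crct1, and the transglutaminase genes Tgm1, Tgm3 and Tgm5. All 10 were found among the 16902 gene symbols of both deposited tables, and all 10 passed the filter on low values that left 14614 genes for testing.

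The libraries came from the epidermis of back skin of CD1 mice, separated from the dermis with dispase. Ovol1 encodes a transcriptional repressor of epithelial cells, and IMQ is a Toll-like receptor agonist that causes psoriasis-like inflammation on mouse skin. The 4 groups of 2 libraries were untreated Ovol1 +/- controls, untreated Ovol1 -/- mice, IMQ-treated Ovol1 +/+ controls and IMQ-treated Ovol1 -/- mice, so by the labels the control genotype was not the same in the untreated and the IMQ comparison. The columns of the untreated table are headed WT for these controls, which goes against the +/- of the labels, and the labels are followed here. Each group held 1 female and 1 male, and the labels give neither the age of the mice nor the dose and duration of IMQ. With 2 libraries a group, the p-values measure only the spread between these libraries.

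Envelope assembly is ordered. Envoplakin (Evpl) and periplakin (Ppl), 2 rod-shaped plakins that pair with each other, and involucrin (Ivl) line the membrane first, and sciellin (Scel) is joined to the same layer. Transglutaminases, calcium-dependent enzymes, then link glutamine to lysine side chains, and loricrin (Lor), a glycine-rich protein that makes up most of the mature envelope, is added from the inside. Tgm1 encodes the membrane-anchored enzyme whose loss causes lamellar ichthyosis in people, Tgm3 a soluble enzyme of upper epidermis and hair follicle that is activated by proteolysis, and Tgm5 the enzyme whose loss causes acral peeling skin. Kprp encodes a proline-rich keratinocyte protein and Crct1 a small cysteine-rich protein, both from the epidermal differentiation complex, a gene cluster that also holds Lor and Ivl.

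The 4 precursor genes lie on the minus strand of chromosome 3 (mm10), Lor at 92080271 to 92083142, Ivl at 92570902 to 92573735, Kprp at 92823074 to 92827247 and Crct1 at 93014205 to 93015687. Evpl lies on chromosome 11 (116220559 to 116238077), Ppl on chromosome 16 (5086291 to 5132421), Scel on chromosome 14 (103513342 to 103612797) and Tgm1 on the same chromosome (55700009 to 55713926). Tgm3 (130012349 to 130050399) and Tgm5 (121046111 to 121085841) are both on chromosome 2. No other listed gene with a GENCODE position overlapped any of them.

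Promoters of 6 of the 10 genes (Lor, Ivl, Scel, Tgm1, Tgm3 and Tgm5; 7 start sites) were matched in RefSeq (GRCm38.p6). Those of Lor, Ivl, Scel and Tgm3 are shown because each held a searched motif, which sets genes of different roles side by side. The 150 bases before the start site are printed 5′ to 3′ on the gene's strand, with matches in capitals: TGANTCA, the AP-1 motif, and TATAAA, the TATA box.
Lor, chr3:92083143-92083292, minus strand: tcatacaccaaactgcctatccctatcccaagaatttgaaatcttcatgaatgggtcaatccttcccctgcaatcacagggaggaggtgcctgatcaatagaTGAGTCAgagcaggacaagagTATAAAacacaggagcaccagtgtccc
Ivl, chr3:92573736-92573885, minus strand: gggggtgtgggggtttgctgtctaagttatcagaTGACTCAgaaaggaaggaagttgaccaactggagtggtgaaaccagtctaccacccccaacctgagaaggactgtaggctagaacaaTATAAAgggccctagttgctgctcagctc
Scel, chr14:103513191-103513340, plus strand: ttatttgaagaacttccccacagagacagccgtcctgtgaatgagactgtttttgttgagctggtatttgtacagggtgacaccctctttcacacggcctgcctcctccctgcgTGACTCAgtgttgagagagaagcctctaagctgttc
Tgm3, chr2:130012190-130012339, plus strand: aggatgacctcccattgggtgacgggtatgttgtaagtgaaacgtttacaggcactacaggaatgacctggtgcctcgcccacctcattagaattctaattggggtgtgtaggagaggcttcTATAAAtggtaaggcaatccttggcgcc

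The TGANTCA match began 48 bases before the start site in Lor, 116 in Ivl and 36 in Scel, and was present in 3 of the 7 windows of 300 bases against 7.81% of all 32851 promoters (both strands searched, the motif being its own reverse complement). TATAAA, searched on the gene's strand, began 27, 29 and 28 bases before the start in Lor, Ivl and Tgm3, against 8.32% of all promoters with a match anywhere in the window. CCGTTA, the core of the Ovol1 motif, was in 0 of the 7 windows and in 2.76% of all promoters. AACCGGTT, the Grhl motif, was in 0 of the 7 and 0.146% of all. With shares this low, 0 in 7 windows cannot set these genes apart from others. Kprp, Crct1, Evpl and Ppl had no window to search.

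Each library held 28.6 to 43.1 M reads, recovered as whole numbers from the deposited values. Values are given as normalised counts, that is reads divided by 1 size factor per library, for comparisons within the untreated or within the IMQ table, which were scaled separately. CPM, reads scaled to a common library total with TMM factors over all 8 libraries, is used where the tables are set side by side. Ovol1, the labelled target, had 16629 and 14582 normalised counts in the untreated controls (female, male), 27433 and 26601 in the untreated -/- libraries, 7635 and 9556 in the IMQ controls and 13457 and 13076 in the IMQ -/- libraries. Its libraries did not overlap, -/- being higher in both tables (limma log2 difference untreated 0.79, SE 0.15, adjusted p = 0.346; under IMQ 0.64, SE 0.15, adjusted p = 0.0880). A value that sums the reads of the whole gene does not check which exons are left, so these samples are called labelled knockouts. Keratinocyte markers (8 of 8 in the tables, Krt5 and Krt14 among them) summed to 20367 to 31351 CPM. Summed CPM ran from 95.2 to 2621 for 10 dermal fibroblast markers, 1519 to 4328 for 12 of 14 leukocyte, 931 to 3096 for 10 sebaceous gland, 17.9 to 38.1 for 11 of 18 hair follicle, 14.4 to 81.9 for 5 melanocyte, 4.86 to 99.6 for 5 skeletal muscle and 0.606 to 17.8 for 5 endothelial markers. The highest melanocyte, muscle and endothelial sums were all in the female IMQ control.

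Per exon length, Lor and Crct1 stood above the other genes in all 4 groups. In untreated controls the mean was 1591 CPM per kb for Lor and 802 for Crct1, and the female and male libraries of these neighbours in rank overlapped. Then came Scel (268), Kprp (241), Ppl (222) and Ivl (215), each overlapping the next, Tgm1 (111) and Evpl (88.4), which overlapped each other, and Tgm5 (11.4) and Tgm3 (2.75). Of the 3 enzymes, Tgm1 thus had the highest RNA level per length in every library, with Tgm5 at 0.0391 to 0.142 of it and Tgm3 at 0.0142 to 0.0453. In the IMQ labelled knockouts the order in the middle was another one: Ivl (211) and Tgm1 (199) came next after Crct1, while Kprp, at 24.1 CPM per kb, stood below Evpl (67.3) and overlapped Tgm5 (9.71).

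**Figure D1:**
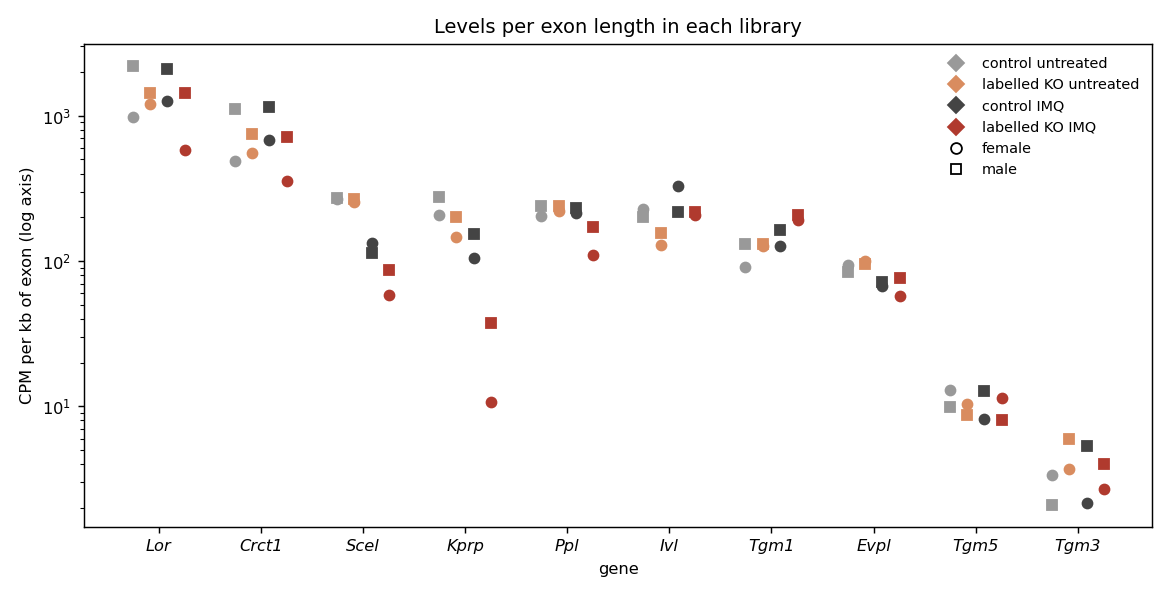
CPM per kb of exon (log axis) for each of the 10 genes, ordered by their mean in untreated controls, with 1 point per library, coloured by group and shaped by sex. Lor and Crct1 lie highest and Tgm5 and Tgm3 lowest in every group, while Kprp has a mean of 241 in untreated controls and 24.1 in IMQ labelled knockouts.

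The IMQ comparison asks how epidermis labelled as lacking Ovol1 differs from control epidermis under inflammation. Kprp was the member with the widest difference, 6.31-fold lower in the labelled knockouts. Scel, Lor, Crct1 and Ppl were 1.62-fold to 1.78-fold lower, Ivl was 1.26-fold lower, Tgm1 was 1.38-fold higher, and Evpl, Tgm3 and Tgm5 had estimates of -0.06, -0.04 and -0.10 on the log2 scale. The libraries of Lor, Crct1, Evpl, Tgm3 and Tgm5 overlapped between genotypes. Within each sex, the labelled knockout was lower for Lor (female -1.10, male -0.56) and for Crct1 (female -0.91, male -0.71) on the log2 scale. Of the 10 genes, 9 had a negative log2 fold change, with a median of -0.52 against -0.01 over all genes tested, though the sign of Evpl, Tgm3 and Tgm5 turned when 1 library was left out. In limma over all genes 0 of the 10 passed an adjusted p of 0.05, where 0.438% of all genes did (0.281% lower and 0.157% higher). With sex as a block 1 did, Kprp, which was lower, against 2.45% of all genes in either direction and 1.86% on the lower side. At an unadjusted p under 0.05 in limma without the block there were 3, Kprp, Scel and Ppl, against 22% of all genes. With the block that p in limma was under 0.05 for Kprp (8.52e-05), Crct1 (0.00294), Ppl (0.00311), Scel (0.00384), Lor (0.0121) and Tgm1 (0.0168). Of all 14614 genes 3659 were under it with the block. edgeR called 0, against 0.205% of all genes, and DESeq2 2, Kprp and Scel, against 8.53% of all genes. The libraries of the labelled knockouts and controls did not overlap for 4 members on the lower side (26.4% of all genes) and 1 on the higher side (26.6%), together 5 of 10 against 53% of all genes.

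**Figure D2:**
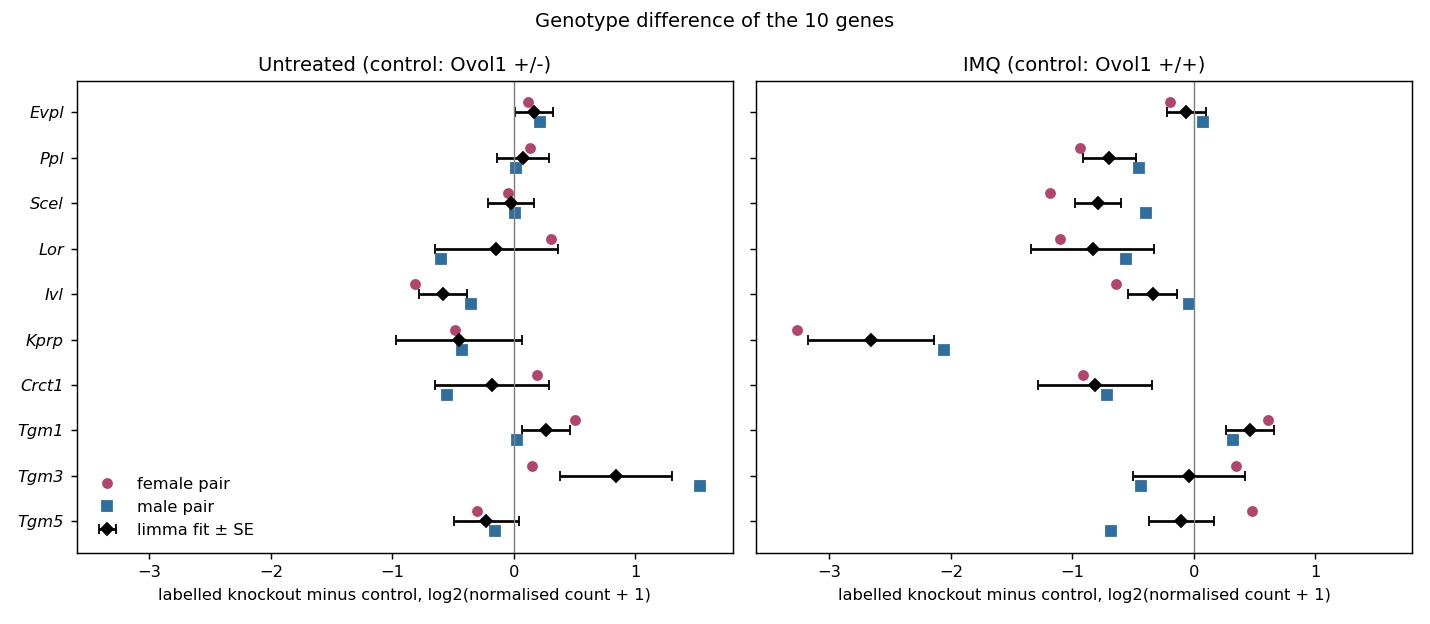
Difference between labelled knockout and control on the log2(normalised count + 1) scale, untreated on the left and under IMQ on the right, with the limma estimate and its SE (diamond and bar) and the female and male pairs. Under IMQ Kprp lies far to the left in both pairs (-3.26 and -2.05), and Tgm1 has an estimate above 0, while those of Evpl, Tgm3 and Tgm5, near 0, turn in sign when 1 library is left out.

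In untreated epidermis, the comparison at rest, estimates ran from -0.58 for Ivl to 0.84 for Tgm3, against -2.66 to 0.46 under IMQ. Ivl stood at 0.668 and Kprp at 0.731 of the control level, Tgm3 was 1.79-fold higher, and the scaffold genes had log2 differences between -0.02 and 0.17. The median over the 10 was -0.08 against 0.00 over all genes. limma called 0 of the 10, without sex as a block (0% of all genes called) and with it (0.0547%), as did edgeR (0%) and DESeq2 (0.595%). At an unadjusted p under 0.05 there was 1, Ivl, against 4.46% of all genes. No overlap between the genotypes was seen for 2 members on the lower side, Ivl and Kprp (16.4% of all genes), and for 2 on the higher side, Evpl and Tgm3 (17.4%), 4 of 10 against 33.7% in either direction. The difference between the genotype effects was called for 0 of the 10 by limma (0% of all genes, with or without the block), edgeR (0%) and DESeq2 (0.671%), and had an unadjusted p under 0.05 for 3, Ppl, Scel and Kprp, against 10.1% of all genes.

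Summed markers of other cells also varied between these libraries. For the fibroblast, endothelial and muscle lists limma called 0 genes under IMQ (0.438% of all genes). The fibroblast and muscle sums overlapped between genotypes there. Under IMQ the fibroblast list (10 of 10 in the tables, none at 0) summed to 287 CPM in the female and 2621 in the male control against 95.6 and 1686 among labelled knockouts, and all 10 had a negative fold change. The endothelial list (5 of 5) summed to 17.8 and 2.63 against 1.51 and 2.12 CPM, and the muscle list (5 of 5) to 99.6 and 7.78 against 4.86 and 18.0, each high in the female control. Without that library Kprp was at -2.95, Ppl at -0.77, Scel at -0.68 and Tgm1 at 0.28 on the log2 scale, and Ivl was at -0.06 (limma adjusted p = 0.910) against -0.34 with it. Keratinocyte markers summed to 27172 and 30611 CPM in the IMQ controls against 20367 and 25378. The leukocyte list (12 of 14) summed to 4328 and 2278 CPM there against 2828 and 3073. The melanocyte list (5 of 5) summed to 81.9 and 16.9 against 26.3 and 21.4, and both lists overlapped between genotypes. Without treatment the sebaceous list (10 of 10, none at 0) summed to 1462 and 2356 CPM among controls against 3096 and 3054. The part of these cells in the results was not tested, and in bulk epidermis fewer cells of a type and less RNA per cell cannot be told apart.

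**Figure D3:**
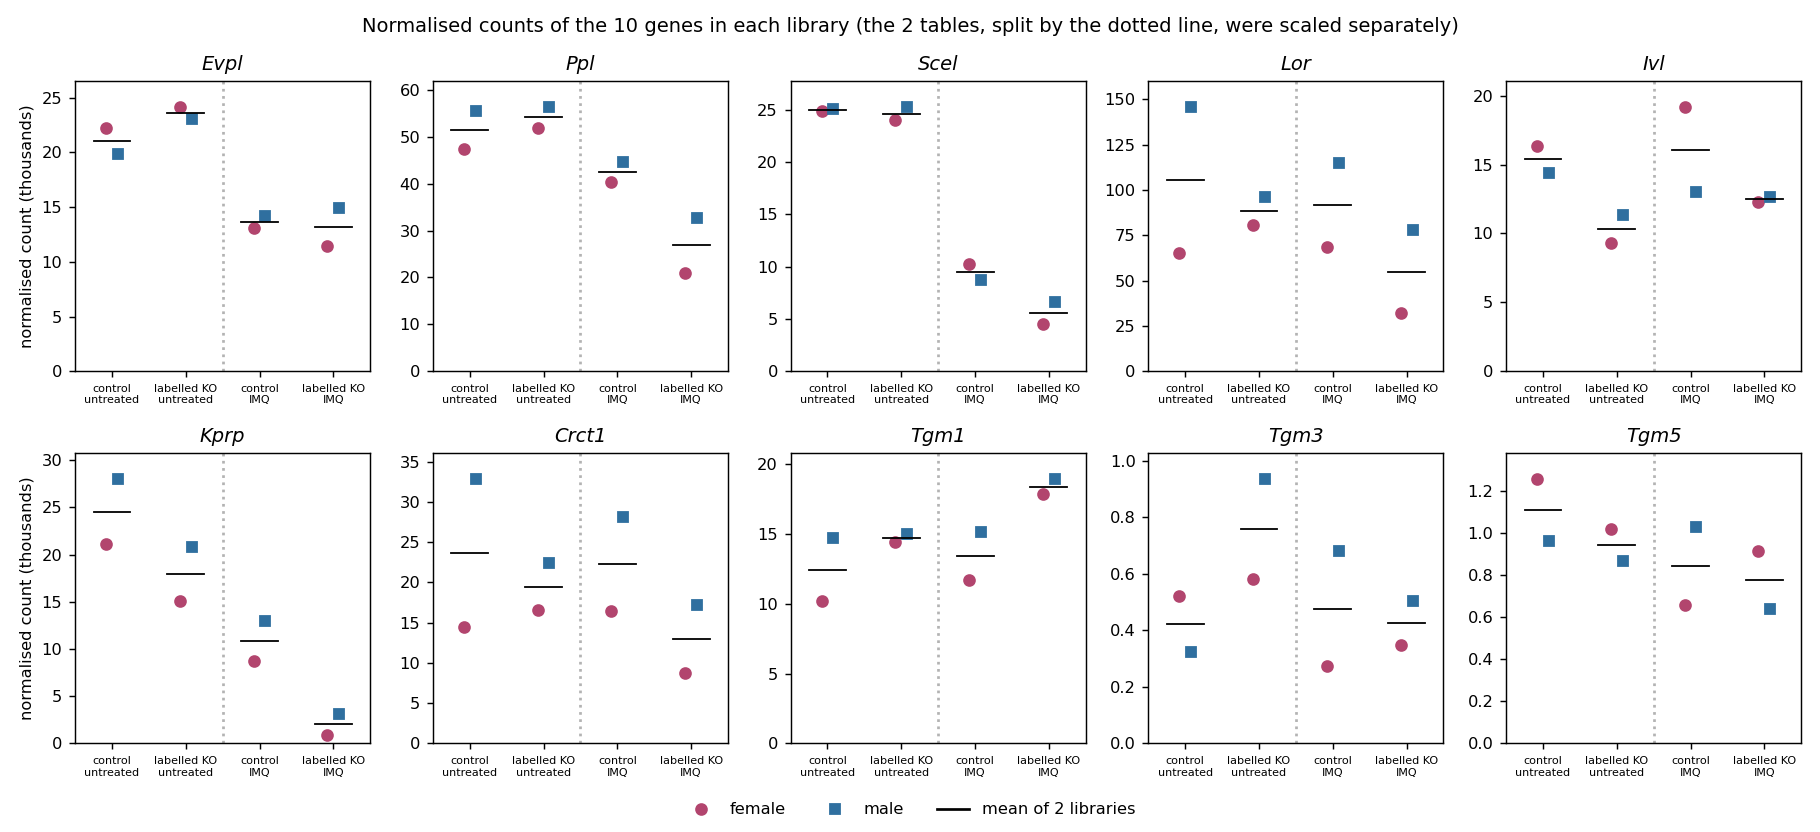
Normalised counts for the 10 genes, 1 panel each and every axis from 0, with female libraries as circles, male libraries as squares and the group mean as a bar; the dotted line divides the separately scaled tables. Kprp in the IMQ labelled knockouts lies at 905 and 3121, below every other library, and Tgm1 there lies above both IMQ controls.

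Among the scaffold genes, Ppl had 47375 and 55496 normalised counts in the untreated controls (female and male, the order used from here on), 51960 and 56246 in the untreated labelled knockouts, 40331 and 44715 in the IMQ controls and 21024 and 32709 in the IMQ labelled knockouts. The genotypes overlapped at rest, and under IMQ both labelled knockouts lay below both controls. By limma the log2 difference came to 0.08 untreated (SE 0.22; adjusted p = 1) and to -0.70 under IMQ (SE 0.22; adjusted p = 0.139, or 0.0668 with the block).

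Scel gave the most even values at rest: 24858 and 25064 for controls, 24024 and 25219 for labelled knockouts. Under IMQ the controls had 10212 and 8713 and the labelled knockouts 4487 and 6616, with no overlap. Its limma estimate was -0.02 at rest (SE 0.19; adjusted p = 1) and -0.79 under IMQ (SE 0.19; adjusted p = 0.0928, or 0.0712 with the block). Scel RNA thus lay within 24024 to 25219 in the 4 untreated libraries and apart by genotype in the 4 treated ones, without passing the threshold. Scel passed in DESeq2 (-0.74, adjusted p = 0.0101), where 8.53% of all genes did. With 1 library left out its limma estimate under IMQ ran from -1.07, without the male labelled knockout, to -0.51. The female pair differed by -1.19 and the male pair by -0.40.

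Evpl, whose protein pairs with periplakin, overlapped between the genotypes under IMQ, where Ppl did not. Its normalised counts were 22237 and 19836 in the untreated controls, 24096 and 23043 in the untreated labelled knockouts, 13073 and 14182 in the IMQ controls and 11401 and 14947 in the IMQ labelled knockouts. At rest both labelled knockouts were above both controls (log2 difference 0.17, SE 0.16; limma adjusted p = 1). Under IMQ the estimate was -0.06 (SE 0.16; adjusted p = 0.855) and turned to 0.13 without the female labelled knockout. Reads per kb of Evpl over those of Ppl were 0.316 and 0.309 for IMQ controls against 0.528 and 0.445 for IMQ labelled knockouts, and 0.348 to 0.457 in the 4 untreated libraries.

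Among the precursor genes, Kprp had 21063 and 27948 normalised counts in the untreated controls and 15080 and 20839 in the untreated labelled knockouts. Under IMQ the controls had 8691 and 12956 (10823 ± 3015, SD, n = 2) and the labelled knockouts 905 and 3121 (2013 ± 1567). These values rest on 9472, 11347, 910 and 3282 reads. Both labelled knockouts lay below both controls in each table, and the female IMQ one was the lowest of all 8 libraries. By limma Kprp differed by -0.45 at rest (SE 0.52; adjusted p = 1) and by -2.66 under IMQ (SE 0.52; adjusted p = 0.0714). With sex as a block its adjusted p under IMQ was 0.0182 (SE 0.32). It also passed in DESeq2 (-2.39, adjusted p = 1.66e-05), where 8.53% of all genes did. The limma estimate was -3.55 without the male IMQ labelled knockout and -1.77 without the female one. The effect under IMQ minus that at rest was -2.21 (SE 0.73; adjusted p = 0.476, or 0.242 with the block).

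Lor had the widest median gap between the sexes of the 10. It had 65266 and 145483 normalised counts in the untreated controls, 80766 and 96272 in the untreated labelled knockouts, 68327 and 115013 in the IMQ controls and 31884 and 77974 in the IMQ labelled knockouts. The genotypes overlapped in both tables, the female and male pairs having opposite signs at rest (0.31 and -0.60) and the same sign under IMQ (-1.10 and -0.56). The limma estimate for Lor was -0.14 at rest (SE 0.51; adjusted p = 1) and 0.43 without the male control. Under IMQ it was -0.83 (SE 0.51; adjusted p = 0.368, or 0.110 with the block). That value was -0.19 without the female labelled knockout and -1.48 without the male one (adjusted p = 0.908 and 0.171).

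The values of Crct1 were high and low in the same libraries as those of Lor. Its normalised counts were 14490 and 32790 in the untreated controls, 16543 and 22389 in the untreated labelled knockouts, 16463 and 28104 in the IMQ controls and 8752 and 17171 in the IMQ labelled knockouts. The genotypes overlapped in both tables. The female and male pairs were at 0.19 and -0.55 at rest and at -0.91 and -0.71 under IMQ. For Crct1 limma gave -0.18 at rest (SE 0.47; adjusted p = 1), or 0.41 without the male control, and -0.81 under IMQ (SE 0.47; adjusted p = 0.343, or 0.0655 with the block). Under IMQ it was -0.33 without the female labelled knockout and -1.30 without the male one (adjusted p = 0.830 and 0.219). Reads per kb of Crct1 were 0.460 to 0.617 of those of Lor in the 8 libraries, although Lor itself ran from 1033 to 3913 CPM. Kprp, from the same gene cluster, ran from 0.0185 to 0.210 of Lor, with 0.0829 and 0.0734 for IMQ controls against 0.0185 and 0.0261 for IMQ labelled knockouts. Under IMQ the ratio of Kprp to Lor was thus lower in both labelled knockouts, while that of Crct1 to Lor overlapped between genotypes (0.541 and 0.549 against 0.617 and 0.495).

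**Figure D4:**
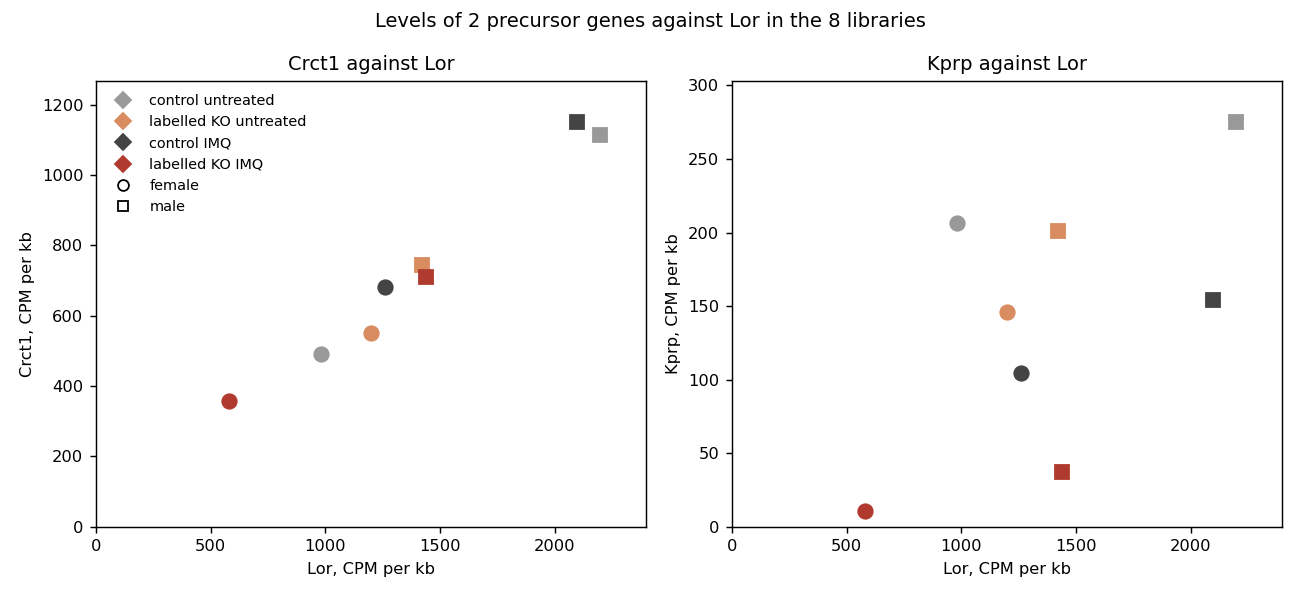
CPM per kb of Crct1 (left) and Kprp (right) against that of Lor, 1 point per library, coloured by group and shaped by sex, all axes from 0. Crct1 keeps to 0.460 to 0.617 of Lor in the 8 libraries, whereas the 2 IMQ labelled knockouts lie low on the Kprp axis, at 0.0185 and 0.0261 of Lor.

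Ivl was lower in the labelled knockouts both at rest and under IMQ. Untreated controls had 16337 and 14410 normalised counts and untreated labelled knockouts 9298 and 11301 (limma estimate -0.58, SE 0.20; adjusted p = 0.945, or 0.705 with the block). IMQ controls had 19143 and 12973 and IMQ labelled knockouts 12291 and 12637 (-0.34, SE 0.20; adjusted p = 0.352). Neither pair of groups overlapped, but the male IMQ pair lay close together, at -0.04 against -0.64 in the female pair. Without the female IMQ control the estimate under IMQ was -0.06. Reads per kb of Lor over Ivl ran from 2.80 in the female IMQ labelled knockout to 10.9 in the male untreated control.

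Of the enzymes, Tgm1 had 10179 and 14685 normalised counts in the untreated controls, 14435 and 14991 in the untreated labelled knockouts, 11720 and 15144 in the IMQ controls and 17867 and 18910 in the IMQ labelled knockouts. Both IMQ labelled knockouts lay above both controls. Tgm1 had a limma estimate of 0.27 at rest (SE 0.20; adjusted p = 1) and 0.46 under IMQ (SE 0.20; adjusted p = 0.228, or 0.124 with the block), positive in both pairs (0.61 and 0.32). Reads per kb of Tgm1 over Ivl, which encodes one of its substrates, were 0.391 and 0.746 for IMQ controls against 0.929 and 0.956 for labelled knockouts, and at rest 0.398 and 0.651 against 0.992 and 0.848. That ratio was higher in both labelled knockouts than in both controls, with and without IMQ. It is not separate evidence from the values of its genes. Ivl was lower in the labelled knockouts without overlap in both tables, and Tgm1 was higher without overlap under IMQ. Libraries did not overlap between genotypes for 33.7% of all single genes at rest and 53% under IMQ. How many other gene pairs separate in this way was not counted, for this ratio or those above.

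Tgm3 was the least abundant, with 297 to 907 reads a library. Its normalised counts were 523 and 323 in the untreated controls and 582 and 935 in the untreated labelled knockouts, and 273, 682, 348 and 505 in the female and male IMQ controls and labelled knockouts in turn. Its limma estimate was 0.84 at rest (SE 0.46; adjusted p = 1), the female pair being at 0.15 and the male pair at 1.53, and -0.04 under IMQ (SE 0.46; adjusted p = 0.969). Hair follicle markers, where Tgm3 is also known to be expressed, summed to 33.3 and 33.4 CPM for untreated controls against 37.9 and 38.1 (11 of 18 markers in the tables, none at 0 in both libraries of an untreated group). Their part in the Tgm3 values was not tested.

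Tgm5 had 1257 and 965 normalised counts in the untreated controls, 1019 and 869 in the untreated labelled knockouts, 657 and 1032 in the IMQ controls and 917 and 642 in the IMQ labelled knockouts. The genotypes overlapped in both tables, and under IMQ the pairs had opposite signs (0.48 female, -0.68 male). It differed by -0.23 at rest (SE 0.27; limma adjusted p = 1) and by -0.10 under IMQ (SE 0.27; adjusted p = 0.855). The sign of the IMQ value for Tgm5 and Tgm3 turned when 1 library was left out, as did that of Evpl, so no direction is given for these 3.

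IMQ was set against untreated epidermis in CPM, as a description without a test, since the tables were scaled separately and the controls differ in genotype. Scel was 2.18-fold lower under IMQ among controls and 3.65-fold lower among labelled knockouts. Kprp was 1.88-fold and 8.45-fold lower, the latter from 399 and 548 CPM to 29.3 and 102. On the log2 scale that difference was -3.08, and -2.19 or -3.97 without the female or the male IMQ labelled knockout. Evpl was 1.27-fold and 1.46-fold lower. Ppl was at 1269 and 1493 CPM in untreated controls and 1322 and 1451 in IMQ controls, while the labelled knockouts were at 1373 and 1480 untreated and lower under IMQ, at 681 and 1073.

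On the higher side, Tgm1 and Ivl differed by 0.63 and 0.59 on the log2 scale in the labelled knockouts, without overlap, and by 0.40 and 0.32 among controls, where libraries overlapped. Lor, Crct1, Tgm3 and Tgm5 overlapped between treatments in both genotypes. Among controls 3 members had no overlap, all lower under IMQ, where 67.6% of all genes had none (32.3% lower, 35.3% higher). Among labelled knockouts 6 had none, 4 lower and 2 higher, against 79.9% of all genes (40.1% lower, 39.9% higher). The median log2 ratio of the 10 was 0.08 for controls and -0.51 for labelled knockouts, against 0.02 and -0.01 over all genes. The comparisons at the 2 treatments and of the 2 genotypes share their libraries, so these values and the genotype differences above are not separate evidence.

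**Figure D5:**
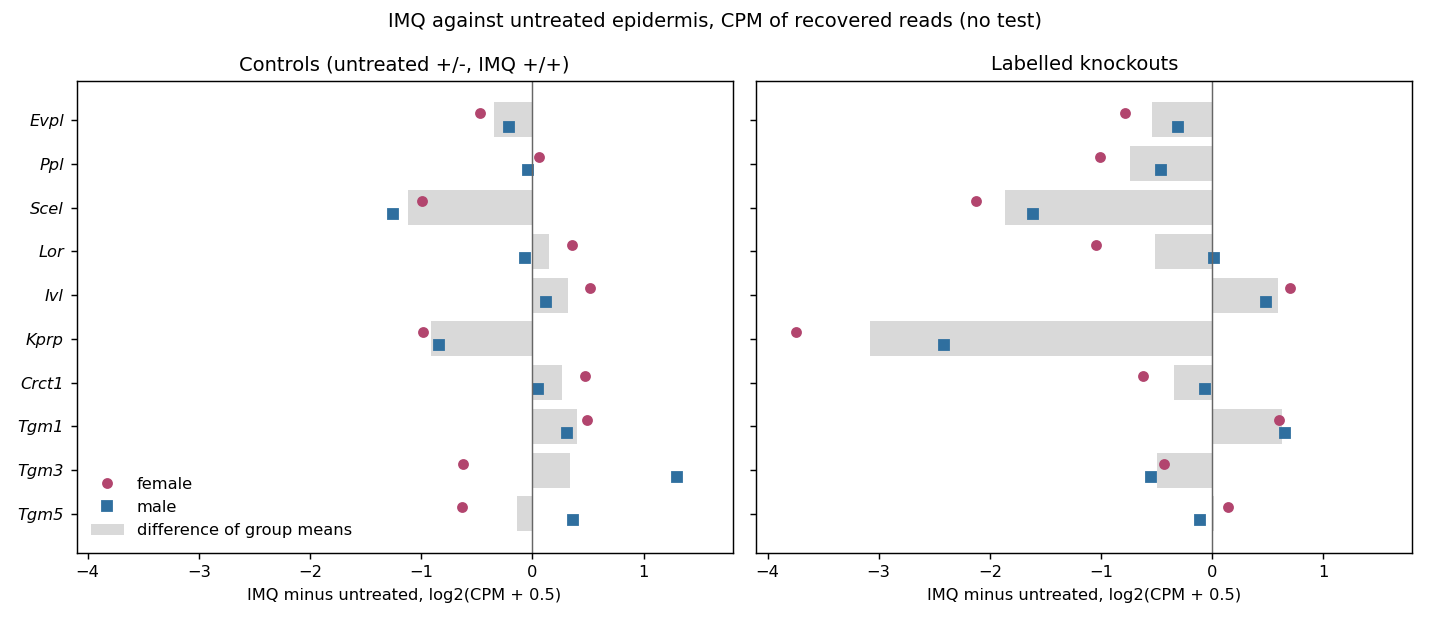
IMQ minus untreated on the log2(CPM + 0.5) scale for the 10 genes in controls (left) and labelled knockouts (right), with the difference of group means as a bar and the differences of the female and of the male libraries as points. Kprp (-0.91 and -3.08) and Scel (-1.12 and -1.87) lie lower under IMQ in both, and Ppl is near 0 in controls and at -0.74 in labelled knockouts.

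Male libraries were higher than female ones in all 4 groups for Ppl, Lor, Kprp, Crct1 and Tgm1, where 12.1% of all genes tested were. The median male minus female difference on the log2 scale was 0.95 for Lor and 0.87 for Crct1, against 0.52 for Kprp, 0.23 for Tgm1 and 0.19 for Ppl. No member was higher in the female library of every group, where 9.68% of all genes were. Within a group, with 1 animal of each sex, sex cannot be told apart from the animal or its handling. Over the 4 groups sex recurs, but handling shared by the libraries of 1 sex could not be told apart from it. No test of sex was made. The summed dermal fibroblast markers were also higher in each male library, 175 and 496 CPM (female and male) in untreated controls, 95.2 and 526 in untreated labelled knockouts, 287 and 2621 in IMQ controls and 95.6 and 1686 in IMQ labelled knockouts. Of the 10 markers 8 were higher in the male of all 4 groups, and Col6a1 and Fn1 were not. The same held for 7 of 11 genes that accompany the members in suprabasal layers and 7 of 16 other envelope precursors. It held for 2 of 12 plakin and desmosome genes, 2 of 6 protease and inhibitor genes and 0 of 6 other transglutaminase genes. Among markers it held for 2 of 10 sebaceous, 1 of 12 leukocyte, 1 of 11 hair follicle and 0 of 8 keratinocyte ones. No endothelial, melanocyte or muscle marker showed it. The part of any of these genes in the difference was not tested.

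Likeness of profile was measured as the root mean square distance between log2 CPM values over the 8 libraries, each gene centred on its own mean. Among the 10, Lor and Crct1 were closest (0.118), followed by Evpl and Ppl (0.262). For Evpl and Ppl the median gene lay at 0.411 and 0.476, and the nearest gene outside the 10 at 0.0578 and 0.0911. Outside the 10, Csta1, which encodes a cystatin A that is itself an envelope protein, was the nearest gene to Crct1 (0.0930). Nrtn (0.175) and Dkkl1 (0.201) came next, the median gene lying at 0.635. Adh1 (0.189), Csta1 (0.190) and Dkkl1 (0.199) were nearest to Lor, with the median gene at 0.663.

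For the other members the nearest genes were Ap3s1 (0.0578), Pik3c2a (0.0643) and Bptf (0.0646) for Evpl, Sh3d19 (0.0678), Pik3r2 (0.0808) and Ephb6 (0.0997) for Scel, and 2310022B05Rik (0.0911), Wipi1 (0.0927) and Nsdhl (0.0940) for Ppl. For Kprp the closest were Gm11992 (0.256), the tight junction gene Cgn (0.276) and Oas1f (0.338), with the median gene at 1.48. Ivl was nearest to Capza1 (0.142), Prelid2 (0.148) and Tagap (0.154), and Tgm1 to Plpp6 (0.0847), Dnlz (0.111) and Twf1 (0.113). Tgm5 was nearest to Clcn6 (0.117), Trp53tg5 (0.122) and Ripk4 (0.125), and Tgm3 to Zdbf2 (0.220), Susd1 (0.288) and Cldn19 (0.291).

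Of 16 other envelope precursors, 15 were tested. Under IMQ limma called 1 higher and 0 lower, against 0.157% and 0.281% of all genes, with a median log2 fold change of 0.01. At an unadjusted p under 0.05 there were 10, where 22% of all genes were. The called gene was Rptn, which encodes repetin, at 253 and 361 normalised counts for IMQ controls against 1467 and 2434 for labelled knockouts (2.64 on the log2 scale, SE 0.34; limma adjusted p = 0.0400). In edgeR 0 of the 15 were called (0.205% of all genes). In DESeq2 3 were higher, Rptn among them, and 3 lower, against 8.53% of all genes in either direction. With the block in limma 2 were also lower, against 1.86% of all genes. They were the filaggrin relative Flg2 at -1.72 (limma adjusted p = 0.0818, 0.0123 with the block) and the late cornified envelope gene Lce6a at -3.44 (0.0714, 0.0123 with the block). edgeR with the block called Rptn higher and these 2 lower, where it called 282 of 14614 genes. Precursors thus stood on both sides of 0 under IMQ, with Rptn opposite to Kprp. At rest none of the 15 was called by limma, edgeR or DESeq2, against 0%, 0% and 0.595% of all genes. At an unadjusted p under 0.05 in limma there was 1 at rest, against 4.46% of all genes. The matrix protein gene Ecm1 was at -0.60 at rest (SE 0.22) and Cstb, which encodes cystatin B, at 0.28 (SE 0.13), each with an adjusted p of 1.

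The plakin and desmosome list had 12 of 12 genes tested, 10 with a negative fold change under IMQ and a median of -0.34. limma called 0 (5 at an unadjusted p under 0.05), while edgeR called 0 and DESeq2 4, all lower. The shares of all genes given next apply to this list and those that follow. At rest they were 4.46% at that unadjusted p, 0% in limma and edgeR and 0.595% in DESeq2. Under IMQ they were 22% at that p, 0.438% in limma, 0.205% in edgeR and 8.53% in DESeq2. With the block in limma 1 was lower, Dst, which encodes the plakin that anchors hemidesmosomes, at -0.85 (SE 0.15, adjusted p = 0.0657, 0.0405 with the block). Eppk1, which encodes epiplakin, was at -1.12 (SE 0.22, adjusted p = 0.0730, 0.0517 with the block). At rest all 3 tools called 0 (limma gave 1 at an unadjusted p under 0.05), with Dst at -0.44 (SE 0.15, adjusted p = 0.921) and the desmocollin gene Dsc1 at 0.37 (SE 0.34, adjusted p = 1).

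Other transglutaminase genes were at 11.7 to 41.1 summed CPM over 6 genes. Of the 5 tested, limma called 0 under IMQ (3 at an unadjusted p under 0.05), while edgeR called 0 and DESeq2 2, the following pair. They were Tgm7 at -1.68 (SE 0.37, limma adjusted p = 0.0848) and F13a1, the factor XIII subunit of macrophages, at -3.16 (SE 0.92, adjusted p = 0.126). At rest all 3 tools called 0 (0 at an unadjusted p under 0.05 in limma), and the 2 with the smallest p were Tgm2, which encodes tissue transglutaminase, at 0.61 (SE 0.33) and Tgm7 at -0.31 (SE 0.37), both with an adjusted p of 1. Of 6 tested protease and inhibitor genes of the pathway limma called 0 under IMQ (2 at an unadjusted p under 0.05), while edgeR called 0 and DESeq2 1. It was Ctsl, which encodes a cathepsin that activates Tgm3, at -0.90 (SE 0.21, limma adjusted p = 0.0915), with the legumain gene Lgmn at 0.68 (SE 0.26, adjusted p = 0.193). At rest all 3 tools called 0 (0 at an unadjusted p under 0.05 in limma). Ctsl was at -0.47 (SE 0.21) and the calpain gene Capn1 at 0.13 (SE 0.12), both with an adjusted p of 1.

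Of 11 genes that accompany the members in suprabasal layers limma called 0 under IMQ (4 at an unadjusted p under 0.05), while edgeR called 0 and DESeq2 2, with a median of -0.20. Those were Calml3, a calmodulin-like gene, at -0.95 (SE 0.21, limma adjusted p = 0.0876) and the keratin gene Krt77 at -0.66 (SE 0.18, adjusted p = 0.119). At rest all 3 tools called 0 (1 at an unadjusted p under 0.05 in limma). Asprv1, which encodes a protease that processes filaggrin, was at 0.67 (SE 0.26) and Krt2 at -0.66 (SE 0.60), both with an adjusted p of 1.

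For the difference between the genotype effects limma called 0 genes of these 5 lists, with 11 of 49 tested at an unadjusted p under 0.05 (10.1% of all genes) and a smallest adjusted p of 0.476 in each list. None was called in edgeR, and DESeq2 called 1, Rptn. Of all genes 0% were called by limma and by edgeR and 0.671% by DESeq2. The limma estimates were 1.92 for Rptn (SE 0.48) and 2.22 for the proline-rich gene Prr9 (SE 0.75), -1.06 for Eppk1 (SE 0.32) and -0.53 for the desmoglein gene Dsg1a (SE 0.19). They were -1.59 for Tgm2 (SE 0.46), -1.37 for Tgm7 (SE 0.53), 0.94 for Lgmn (SE 0.37), -0.42 for Capn1 (SE 0.18), -0.79 for Calml3 (SE 0.30) and -0.62 for Krt77 (SE 0.26).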

How the data were processed

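RNA-seq libraries of polyadenylated RNA from 8 epidermis samples were stranded and read as 100-bp pairs, per the labels' protocols. The submitters' processing notes name mm10, STAR (2.5.2a), Trimmomatic (0.35), R (3.6.1) and DESeq2 (1.24.0). A read counter, its strand setting and an annotation were not given in the sources used here. Per gene the authors deposited a signal, reads over a size factor of the library, in 2 tables scaled apart. All values (100%) were whole multiples of 1 step within 0.001 read.

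Genotype was tested with limma 3.58.1 (R 4.3.3; trend, robust) on log2(value + 1), for genes with a mean of at least 10 in either table, in 1 fit of 4 group means over 8 libraries, with Benjamini-Hochberg adjustment over 14614 genes at 0.05. Deviations of same-sex libraries correlated between groups (0.145 to 0.463), so values with sex as a block are given where they bear on a call. edgeR 4.0.16 and DESeq2 1.42.0 ran on recovered reads. Exon lengths and positions are from GENCODE vM21, which held 16745 of 16902 symbols. The limma fit was tested on simulated counts with known fold changes. Members and lists were chosen with earlier results of these data known. Named were the members, up to 4 called genes of each other list or the 2 of smallest p, and the 3 nearest profiles per member; cell marker lists are given by summed CPM. Alternatives were pseudocounts of 0.5 and 5, no filter or a mean of 50, TMM, each table alone, the block, both count tools and each library left out. Python 3.11.15, pandas 2.3.3, numpy 2.4.6 and matplotlib 3.10.9 were used.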

Additional observations from a re-analysis of the deposited data

Results flagged for a closer look

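Ppl was the member whose genotype difference had opposite signs in both pairs of animals at the 2 treatments: untreated the female pair was at 0.13 and the male pair at 0.02, and under IMQ at -0.94 and -0.45. The difference of the effects was -0.77 on the log2 scale (SE 0.31, limma adjusted p = 0.481, 0.312 with sex as a block), which did not pass the threshold. Without the female untreated control the untreated value was -0.04, so the sign of the untreated group difference rests on that library.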

How the results depend on the processing

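The number of members called in untreated epidermis and for the difference of the genotype effects was 0 under each alternative run. Under IMQ it was 0 with both pseudocounts, both filters, TMM, each table alone and edgeR, 1 with the replicate block and with edgeR and the block (Kprp), 2 with DESeq2 (Kprp and Scel) and 0 to 2 when 1 library was left out. Over all genes under IMQ limma called 64, 358 with the block, 0 with each table alone, 30 in edgeR, 282 in edgeR with the block, 1247 in DESeq2, and 0 to 299 with 1 library left out. The cause was not tested. The block changed no other call of a member.

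Of 670 recomputed values for single members, 648 kept their direction and side of the threshold or moved by less than the spread, 6 were called where they had not been, 1 moved further (Tgm1 in labelled knockouts, IMQ against untreated, 0.51 without TMM) and 15 genotype differences turned in sign, each on leaving out 1 library. The ranges of those over libraries left out were -0.038 to 0.19 for Ppl, -0.055 to 0.015 for Scel, -0.72 to 0.43 for Lor and -0.77 to 0.41 for Crct1 untreated. They were -0.26 to 0.13 for Evpl, -0.70 to 0.62 for Tgm3 and -0.43 to 0.22 for Tgm5 under IMQ, and -0.037 to 0.52 for Ivl, -0.067 to 0.46 for Tgm1 and -0.20 to 0.45 for Tgm5 in the difference of the effects. IMQ against untreated, values that took both signs without moving beyond the spread were those of Ppl (-0.11 to 0.13), Lor (-0.44 to 0.73), Crct1 (-0.33 to 0.85), Tgm3 (-0.29 to 0.97) and Tgm5 (-0.45 to 0.18) in controls, and Lor (-1.17 to 0.14), Crct1 (-0.84 to 0.15) and Tgm5 (-0.23 to 0.25) in labelled knockouts. Members with no overlap between IMQ and untreated were 3 in controls and 6 in labelled knockouts (7 without TMM), and 5 to 8 and 6 to 10 with 1 library left out, where a lone library overlaps less often. With 1 library left out, the lone library of its group is assumed to vary like the other groups. Depth limits Tgm3 most, at 297 reads in its shallowest library.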
